A study of Rattus norvegicus with 35 samples.

Results

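Glucocorticoid-induced genes are 8 listed genes (Zbtb16, Fkbp5, Tsc22d3, Sgk1, Klf9, Ddit4, Errfi1 and Pdk4) whose transcripts were measured at postnatal day 21 in 35 Sprague-Dawley daughters, in the left abdominal mammary gland. They were found by name among the array probes, any suffix for a predicted or mapped gene removed. This gave 12 probes for 7 of the 8 genes, among 35551 distinct gene or transcript names on the array. Sgk1 carries only its older name Sgk on the array and was matched through its RefSeq transcript, so it is described beside the others. The list was selected on measured values of these arrays: it was chosen with the low Zbtb16 level in BPA25 against control already known. For that reason comparisons that use the control or BPA25 arrays are given as descriptions with no test.

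Pregnant dams were treated from gestational day 10 to 21, and pups of different litters were sampled, 5 in each of 7 groups. The control group is labelled a negative control, with no vehicle named. BPA25 and BPA250 received bisphenol A (BPA, a plastics monomer with oestrogenic activity) by gavage at 25 or 250 µg/kg/day. In BPA25+genistein and BPA250+genistein the same doses came with dietary genistein, a soy isoflavone, at 250 mg/kg chow (about 5.5 mg/kg/day). In BPA25+I3C and BPA250+I3C they came with indole-3-carbinol (I3C, from cruciferous vegetables) at 2000 mg/kg chow (about 45.0 mg/kg/day). No group here received a diet without BPA, and none of the compounds is itself a glucocorticoid. The comparisons ask what exposure before birth had left in these transcripts at weaning.

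Corticosterone, the main glucocorticoid of rats, enters cells and binds the glucocorticoid receptor, which is held ready by heat shock protein chaperones. The bound receptor moves to the nucleus, sits on glucocorticoid response elements and raises transcription of a common core of genes within hours. In the mammary gland glucocorticoids act with insulin and prolactin in alveolar differentiation and milk protein synthesis, and in fat cells they act on differentiation and lipid storage. Secretion follows the time of day and stress, neither of which the labels give for these animals.

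Both Zbtb16 probes are shown first because the largest differences among the 8 genes came from them. They are printed whole, as deposited, and rn3 is the genome build named in the array file headers.
A_44_P366142, chr8:51953559-51953618: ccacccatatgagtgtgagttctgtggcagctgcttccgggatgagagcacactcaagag
A_44_P189428, chr8:52110317-52110376: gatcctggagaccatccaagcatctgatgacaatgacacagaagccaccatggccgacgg
The array files assign both to Zbtb16, which RefSeq places on chromosome 8 (57885886 to 58073507 in the GRCr8 assembly, a different build). The rn3 coordinates set them far apart.

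Promoter sequence was taken from RefSeq (GRCr8), which holds 11 windows of 250 bases before a transcription start for 7 of the 8 genes. Zbtb16 is named only. Windows of Fkbp5, Tsc22d3 and Pdk4 are shown because the levels of these 3 genes, on the brightest probe of each, varied together from array to array (given further on). Tsc22d3 has several starts, and the start farthest downstream is the one printed. All 3 lie on the minus strand and are printed 5′ to 3′.
Fkbp5, chr20:6543556-6543805: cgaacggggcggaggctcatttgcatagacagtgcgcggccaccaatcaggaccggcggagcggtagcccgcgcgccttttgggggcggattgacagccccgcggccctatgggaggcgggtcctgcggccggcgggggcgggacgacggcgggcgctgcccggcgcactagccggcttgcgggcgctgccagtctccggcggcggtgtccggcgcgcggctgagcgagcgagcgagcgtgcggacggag
Tsc22d3, chrX:109010035-109010284: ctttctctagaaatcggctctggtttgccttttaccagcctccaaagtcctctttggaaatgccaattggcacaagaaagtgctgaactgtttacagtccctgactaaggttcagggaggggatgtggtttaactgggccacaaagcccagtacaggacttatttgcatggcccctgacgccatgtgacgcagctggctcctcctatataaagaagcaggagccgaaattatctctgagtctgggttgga
Pdk4, chr4:34568330-34568579: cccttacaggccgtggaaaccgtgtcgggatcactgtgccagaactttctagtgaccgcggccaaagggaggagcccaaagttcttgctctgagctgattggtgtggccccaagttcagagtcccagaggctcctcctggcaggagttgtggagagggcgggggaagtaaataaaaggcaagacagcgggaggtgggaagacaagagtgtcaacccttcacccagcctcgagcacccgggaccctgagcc
Capitals would mark the 6-base core of the glucocorticoid response element, TGTTCT or its reverse complement AGAACA, and neither occurs in any of the 11 windows. Of all 33469 RefSeq windows of that length, 17.5% hold at least 1 of these hexamers on either strand. The full palindromic element (both hexamers with 3 free bases between) was exact in 0.012% of all windows, and within 2 mismatches in 1.58%, against 0 of the 11. These letters are absent from these windows, and distal elements were not looked at.

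Levels are log2 of the processed spot signal relative to the 75th percentile of the same array. A probe entered the main fit when 4 or more of the 5 arrays in some group read it well above background. Of the 12 probes, 11 passed. This left 6 of the 7 genes found by name, besides Sgk1, among 16173 genes. Pdk4 did not pass. The brightest probe stood for each gene. Slide 3 held 4 arrays (replicate 2 of control, BPA25, BPA250 and BPA25+genistein). On them 93.4% to 96.4% of all probes were well above background, against 31.9% to 72.2% on the other 31 arrays. Tested values of several members are also given without slide 3. Values of the longer gene lists are not. Defining markers of several tissues were measured: Adipoq and Plin1 of adipocytes were above background on all 35 arrays, Krt18 and Krt5 of the epithelium on 34 and 32, and Ckm of muscle on 28. In such bulk RNA fewer cells of a type and less RNA per cell cannot be told apart.

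The glucocorticoid receptor itself (Nr3c1) and Hsd11b1, the enzyme that regenerates active corticosterone inside cells, were above background on all 35 arrays. The mean Nr3c1 level was 1.17 ± 1.07 (SD, n = 5) in control and 1.30 ± 0.70 in BPA25, and the highest was 1.91 ± 0.28 in BPA25+I3C. Its lowest values lay on slide 3, down to -0.71 in the control array there. Hsd11b1 ran from 2.18 ± 0.80 in control to 2.75 ± 0.37 in BPA25+I3C. Its slide 3 arrays read 0.79 to 1.09, below every other array. BPA25+I3C has no array on slide 3, so these means are not like for like. By median, Hsd11b1 ran from 2.30 in BPA250+genistein to 2.83 in BPA250, and Nr3c1 was 1.71 in control and 1.90 in BPA25+I3C. Neither gene was called by limma when genistein or I3C was added to BPA250 (Nr3c1 0.17 ± 0.46 and 0.52 ± 0.46, Hsd11b1 -0.16 ± 0.41 and 0.19 ± 0.41, log2 fold change ± SE). Both were singled out for their role after their values could be seen.

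Zbtb16 (PLZF, a zinc finger repressor that glucocorticoids and progestins induce in many tissues) was dim, with 16 of 35 arrays well above background on its brightest probe. In control the 5 arrays read 0.65, -1.17, -2.18, -0.36 and -1.02. With BPA25 they read -3.08, -2.33, -4.10, -2.59 and -1.39. With BPA25+I3C they read -4.38, -2.22, -3.88, -2.05 and -4.46. Control arrays were thus mostly high and the other 2 sets mostly low, with some overlap. Signal was well above background on 4 of 5 arrays in control, 1 of 5 in BPA25 and 0 of 5 in BPA25+I3C. These counts are not like for like. All 4 arrays of slide 3 are among the 16, with 12 outside it. The 1 BPA25 array is the one on slide 3, control has an array there too, and BPA25+I3C has none. Without slide 3 no group reached 4 arrays on this probe.

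The remaining groups lay between. BPA250 arrays read -2.48, -1.51, -0.17, -2.56 and -1.07, and BPA250+I3C arrays -0.30, -1.55, -2.31, -3.15 and -1.82. BPA25+genistein was the tightest group, at -0.92, -2.10, -1.04, -0.83 and -1.17, all above the BPA25 mean. BPA250+genistein was the widest, at -1.09, -4.21, -0.22, -1.66 and -0.48. Ordered by mean, the groups ran control (-0.82 ± 1.05), BPA25+genistein (-1.21 ± 0.51), BPA250+genistein (-1.53 ± 1.60), BPA250 (-1.56 ± 1.01), BPA250+I3C (-1.83 ± 1.05), BPA25 (-2.70 ± 1.00) and BPA25+I3C (-3.40 ± 1.18; SD, n = 5 each). No step between neighbours in this order exceeded the SD of both.

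**Figure D1:**
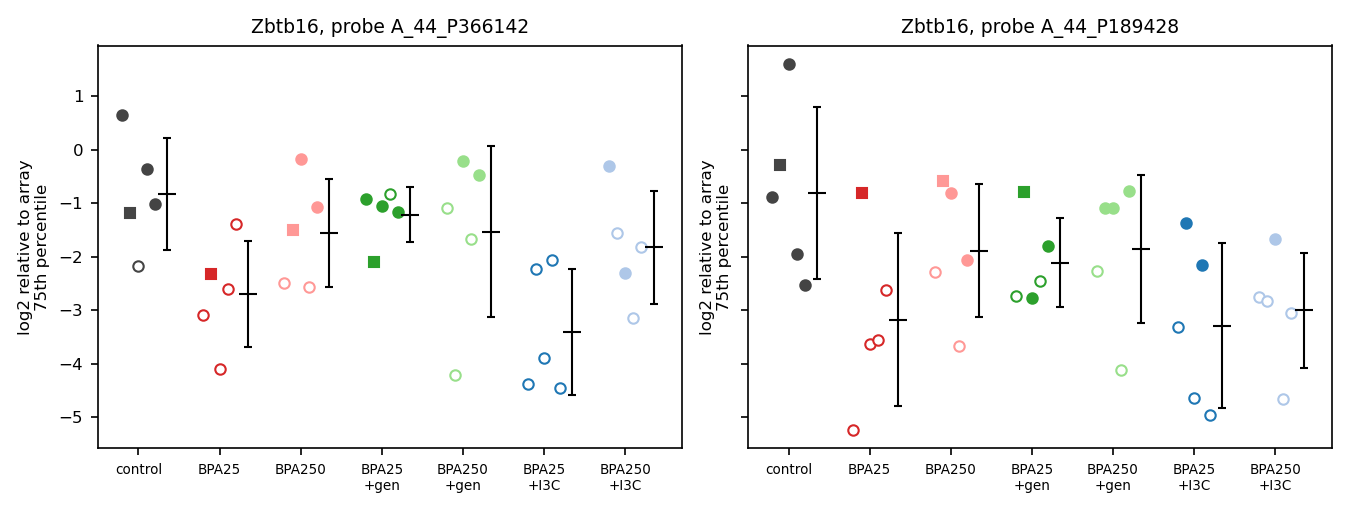
Zbtb16 level (log2 relative to the 75th percentile of the array) on each of 35 arrays by group, for each of its 2 probes. Filled points were well above background, open points were not, squares are arrays of slide 3, and black bars give the mean and SD of 5 arrays. On both probes most arrays of BPA25 and BPA25+I3C are open and low, with means of -2.70 and -3.40 on the left and -3.17 and -3.29 on the right, against -0.82 and -0.81 in control.

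As a description, BPA25 minus control was -1.88 ± 0.65 for Zbtb16 (log2 fold change ± SE), the value that drew attention to the list. Both groups shared 4 slides, and on all 4 the BPA25 value was the lower, with differences from -3.73 to -0.37. The difference was smaller in other versions of the data, at -0.49 ± 0.35 with normexp background correction and -0.86 ± 0.37 in the authors' deposited table. BPA250 minus control was -0.74 ± 0.65, lower on all 3 shared slides. BPA25+I3C minus control was -2.58 ± 0.65, and, taking the detection floor for the dim group, at least 3.15-fold lower on the processed signal. With normexp it was -0.71 ± 0.35 and in the authors' deposited table -1.17 ± 0.37, both smaller than that bound. Genistein added to BPA25 gave 1.49 ± 0.65, against 0.08 ± 0.35 with normexp and 0.49 ± 0.37 in the authors' deposited table.

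The other Zbtb16 probe passed the filter only through control, with 5 of 5 arrays well above background there and 1 to 3 in each other group. The filter thus favoured a high control on this probe. Its BPA25 minus control was -2.37 ± 0.80 and its BPA25+I3C minus control -2.48 ± 0.80, which therefore add no support to the brighter probe. The 2 probes differed for BPA250+I3C, for which the difference from control was -2.19 ± 0.80, against -1.01 ± 0.65 on the brighter probe. Across all 35 arrays both probes correlated at r = 0.46, which is a description over arrays that share slides.

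Fkbp5 codes for the co-chaperone FKBP51, which lowers the hormone affinity of the receptor and is a standard marker of its activity. Unlike Zbtb16 it was bright, above background on all 35 arrays. Control arrays read 3.63, 2.79, 2.53, 3.49 and 2.68, and BPA25 arrays 3.14, 2.17, 1.54, 1.82 and 2.37. BPA25+I3C arrays read 1.98, 2.40, 1.19, 2.72 and 0.98, which includes the 2 lowest of all arrays. BPA25 lay below control on 4 of 4 shared slides (-0.72 to -0.31), though the groups overlapped.

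Described by the fit, Fkbp5 was -0.82 ± 0.37 in BPA25 and -1.17 ± 0.37 in BPA25+I3C, both against control. In BPA250 it was -0.40 ± 0.37 and in BPA25+genistein -0.65 ± 0.37. On the 2 slides that BPA25+I3C shared with control, Fkbp5 differed by -2.30 and 0.03. On the 1 slide that BPA25+I3C shared with BPA25, Fkbp5 was higher by 0.34 in BPA25+I3C. Its dimmer probes gave -0.36 ± 0.42 and -0.44 ± 0.55 for BPA25 minus control, the same direction at a smaller size. The highest Fkbp5 reading of all was 4.14 in BPA250+genistein replicate 5, while the other 4 arrays of that group lay between 2.32 and 2.49.

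Tsc22d3 codes for GILZ, a leucine zipper protein that mediates anti-inflammatory effects of glucocorticoids. BPA250 arrays read 3.81, 2.41, 3.28, 3.96 and 3.95. BPA250+genistein arrays read 4.74, 2.99, 4.83, 4.49 and 5.36. Of these, 4 were above every BPA250 array, and replicate 2, at 2.99, was the exception. Control lay at 3.87 ± 0.64 and BPA25 at 3.41 ± 0.70 (SD, n = 5), and their arrays overlapped.

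The 2 probes of Tsc22d3 disagreed on slide 3, where the brighter probe gave its lowest values in 4 of 4 groups (2.08 to 2.78) and the dimmer probe its highest (1.59 to 1.88). Over 35 arrays they correlated at r = -0.56, and outside slide 3 at -0.08. Slide alone took 67.0% of the variance of the brighter and 84.2% of the dimmer probe, against 20.3% and 13.3% for group. Which probe follows the transcript was not tested.

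Sgk1, a kinase that raises sodium channel activity and blocks FOXO factors, was moderate and even. Its group means ran from -0.83 ± 0.55 in BPA250 to -0.17 ± 0.48 in BPA250+genistein. BPA25 minus control was -0.18 ± 0.32. Klf9, a Krüppel-like factor that dampens other glucocorticoid responses, ran from 2.19 ± 0.95 in BPA25+genistein to 2.73 ± 0.41 in BPA250+I3C. The 4 slide 3 arrays of Klf9 read 0.66 to 0.95, below every other array, and slide took 87.7% of its variance against 9.2% for group. Without slide 3 the Klf9 group means of control and BPA25 were 3.04 and 2.57. A dimmer Klf9 probe correlated with this one at r = 0.17 over 35 arrays, and slide took 27.2% of the dimmer probe's variance.

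Ddit4 (REDD1, an inhibitor of mTORC1) was dim, with 29 of 35 arrays above background and group means from -2.33 ± 1.44 in BPA25+genistein to -1.63 ± 1.61 in BPA250+genistein. No group stood apart for Ddit4. Errfi1 (MIG6, a feedback inhibitor of the EGF receptor) was bright on most arrays but not above background in replicate 4 of BPA25+genistein (-1.75) and of BPA250+genistein (-1.38). These 2 arrays sit more than 2 log2 units below the rest of the gene. BPA25 arrays of Errfi1 lay at 1.85 ± 0.45 and BPA25+I3C arrays at 3.06 ± 0.79, a described difference of 1.20 ± 0.82.

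Pdk4 (a kinase that shuts down pyruvate dehydrogenase and is raised in fasting) was above background on 11 of 35 arrays and on at most 3 in a group. It reached 0.12 in replicates 3 and 5 of BPA250+genistein, while no other array exceeded -1.29. It was left out of the main fit. With no filter on dim probes, genistein added to BPA250 gave 1.69 ± 0.67 and I3C -0.27 ± 0.67 (log2 fold change ± SE), neither called by limma. Signal was above background on 2 of 5 arrays in BPA250+genistein, 1 of 5 in BPA250 and 0 of 5 in BPA250+I3C.

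**Figure D2:**
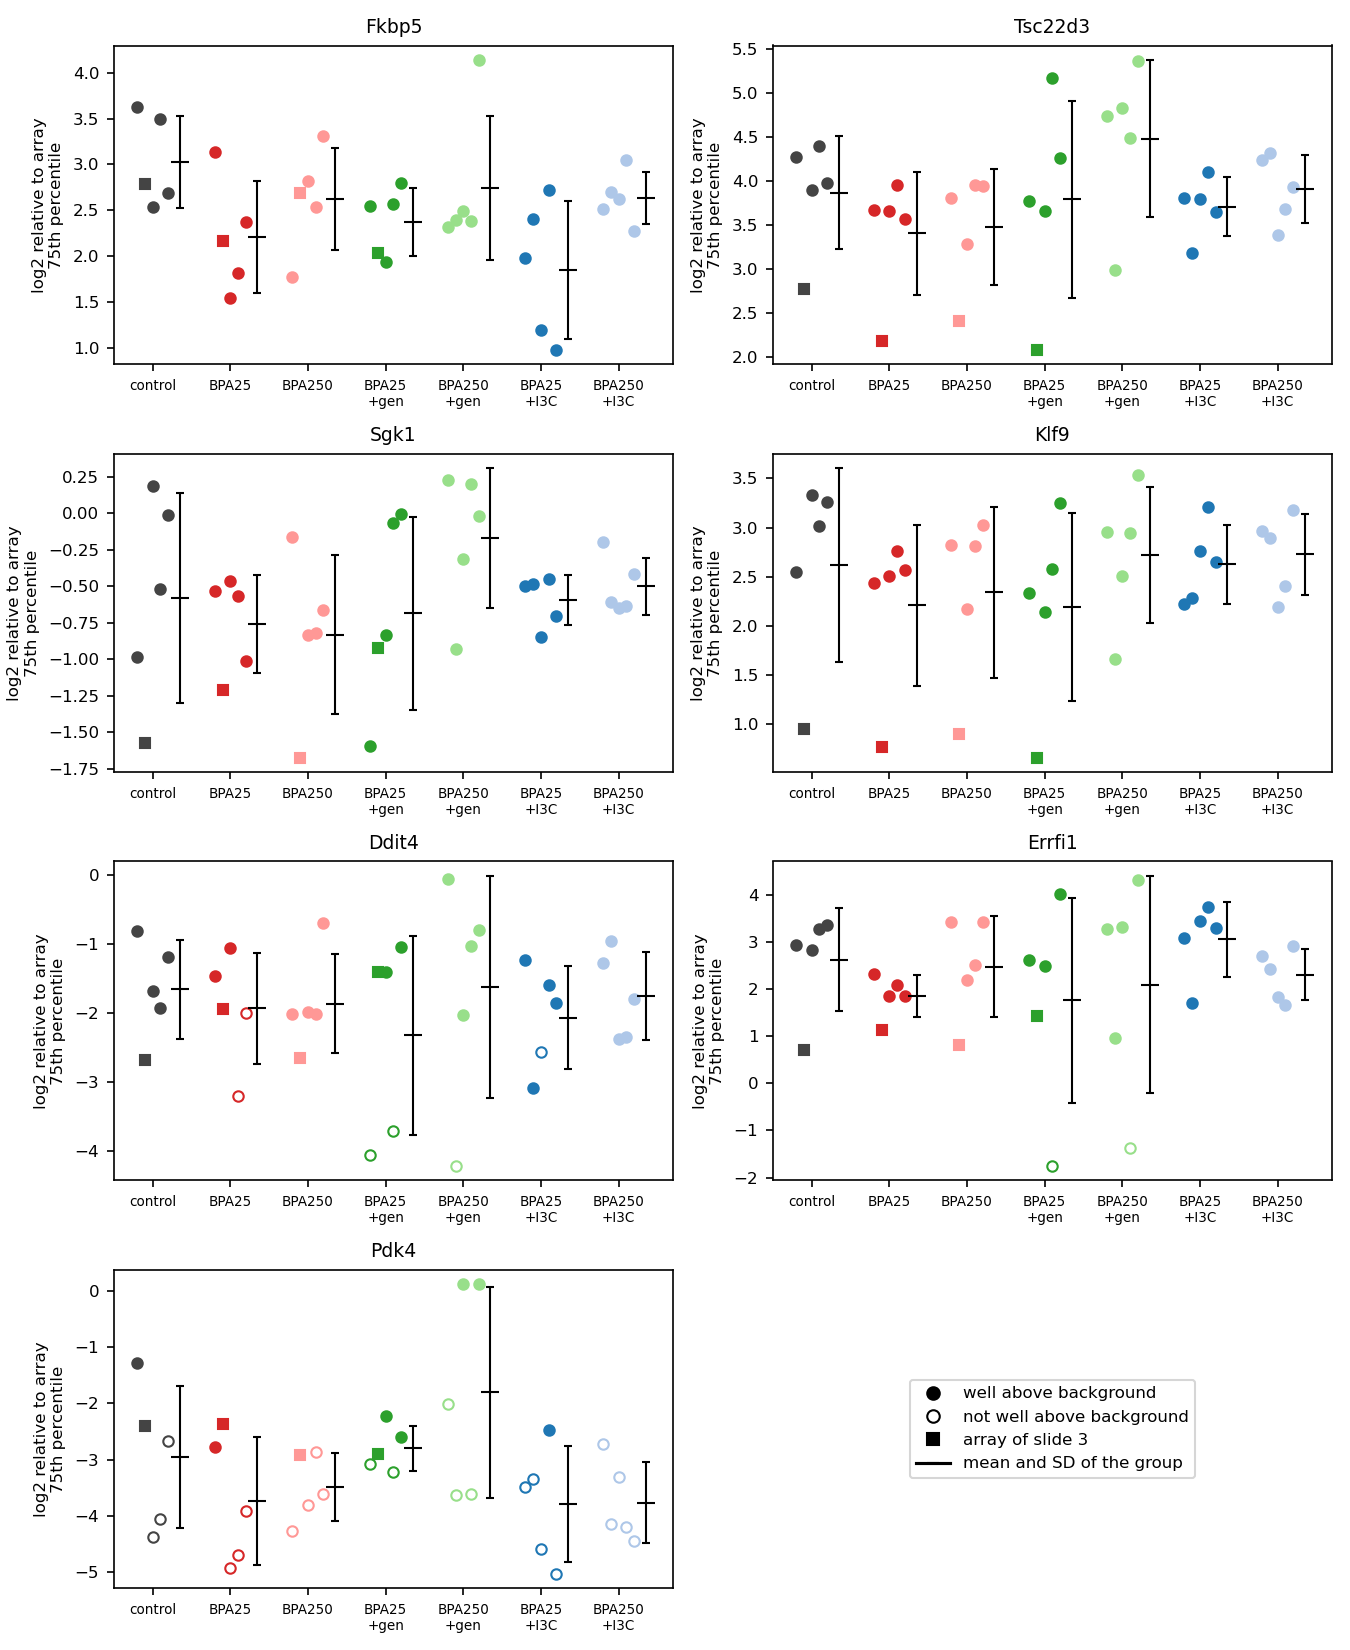
Levels (log2 relative to the 75th percentile of the array) of Fkbp5, Tsc22d3, Sgk1, Klf9, Ddit4, Errfi1 and Pdk4 on each array by group, with symbols as in the legend. Slide 3 squares are the lowest points of Klf9 and of Tsc22d3, 1 BPA250+genistein array stands at 4.14 for Fkbp5, and 2 open points lie far below the rest for Errfi1.

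Counted together, 6 of 6 kept genes were lower in BPA25 than in control, with a median of -0.62, where 48.0% of all 16173 genes were lower and their median was 0.01. This count cannot support a finding, since the list was proposed from that contrast. It was 6 of 6 under quantile, the other percentile, the authors' values and each block, and 5 of 6 with normexp or without BPA25 replicate 4, where Ddit4 turned. BPA250 minus control also had 6 of 6 lower (median -0.33, all genes -0.03, with 58.3% lower). So did BPA25+genistein minus control (median -0.54, all genes 0.04, with 44.5% lower). These counts use the brightest probe of each gene. The dimmer Tsc22d3 probe was higher in all 3 comparisons, at 0.11 ± 0.52, 0.27 ± 0.52 and 0.24 ± 0.52. The dimmer probes of Zbtb16, Fkbp5 and Klf9 were lower in each. These comparisons share the control arrays. Without control replicate 4 or 5, or BPA250 replicate 2, the BPA250 count fell to 5 or 4, and its median to -0.07 without the last. I3C added to BPA25 left 3 of 6 higher and 3 lower, or 2 higher and 4 lower without slide 3.

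**Figure D3:**
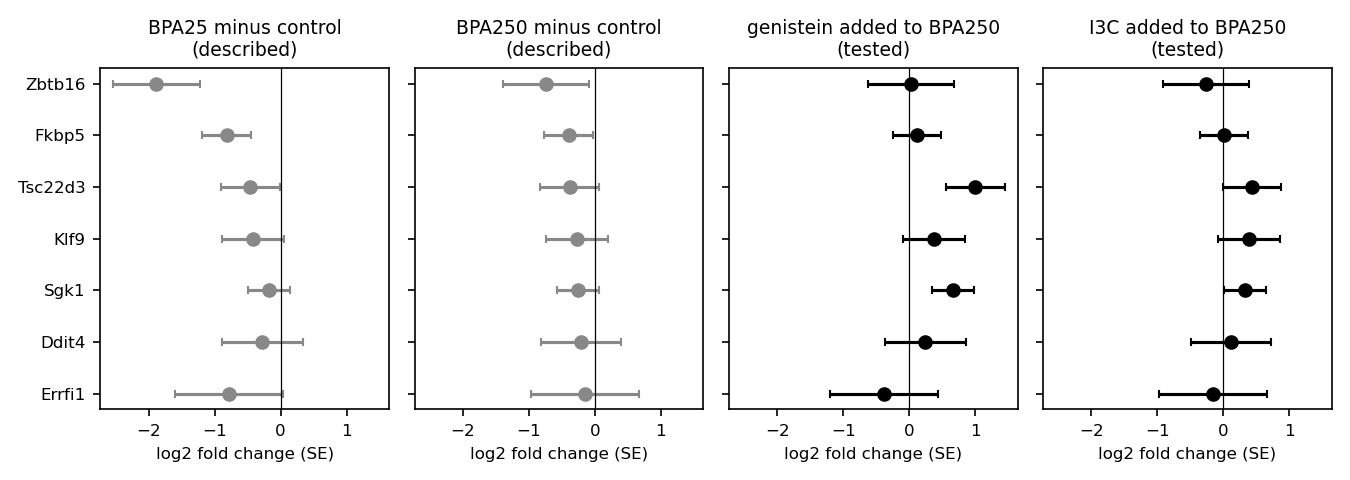
Log2 fold change of each gene (points) with the standard error of the limma fit (bars, 5 arrays per group) in 4 comparisons, 2 described and 2 tested. Zbtb16 is the farthest from 0 with BPA25 (-1.88), and Tsc22d3 with genistein added to BPA250 (1.00).

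Tests used only groups outside that contrast. When genistein was added to BPA250, limma called 0 of 16173 genes (0% called at an adjusted p under 0.05, 681 at an unadjusted p under 0.05). The 7 genes were not called either, and 5 of the 6 found by name were higher (median 0.18), where 42.0% of all genes were lower (median 0.07). Tsc22d3 stood at 1.00 ± 0.45 and Sgk1 at 0.66 ± 0.32 (limma, adjusted p = 1.00 for both). The dimmer Tsc22d3 probe gave 0.19 ± 0.52. On the 2 slides shared by these groups Tsc22d3 was higher by 1.41 and 1.54, and Sgk1 by 0.52 and 0.64. The smallest adjusted p of Tsc22d3 under any alternative that kept all replicates was 0.0766, with slide as a random block. Zbtb16 (0.03 ± 0.65) and Fkbp5 (0.12 ± 0.37) lay near 0. Klf9 stood at 0.38 ± 0.47, Ddit4 at 0.25 ± 0.61 and Errfi1 at -0.38 ± 0.82. The Errfi1 value rests on replicate 4 of BPA250+genistein and was 0.49 without it. BPA250 has an array on slide 3 and its diet groups have none. Without slide 3 the genistein values were 0.73 ± 0.33 for Tsc22d3, 0.45 ± 0.28 for Sgk1, 0.02 ± 0.30 for Klf9, 0.05 ± 0.66 for Ddit4 and -0.79 ± 0.86 for Errfi1, none called by limma, and the median of the 6 genes was 0.04.

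I3C added to BPA250 called 0 genes as well in limma (0% of 16173, 699 at an unadjusted p under 0.05). The median of all genes moved by 0.24 in this comparison, by 0.21 with quantile scaling and by 0.12 in the authors' values, so small positive values are not above it. Of the 6 genes found by name 4 were higher (median 0.06), against 69.8% of all genes. Tsc22d3 (0.43 ± 0.45), Klf9 (0.38 ± 0.47) and Sgk1 (0.33 ± 0.32) were the highest, and none kept its sign under every scaling. Without slide 3 they were 0.16 ± 0.33, 0.02 ± 0.30 and 0.12 ± 0.28, Errfi1 went from -0.16 ± 0.82 to -0.58 ± 0.86, and 3 of the 6 genes found by name were higher. With all arrays, the dimmer probes of Tsc22d3 and Klf9 went the other way, at -0.73 ± 0.52 and -0.36 ± 0.36. Zbtb16 stood at -0.27 ± 0.65 (-1.11 ± 0.80 on its other probe) and Fkbp5 at 0.01 ± 0.37. An F test for any difference among the 5 groups outside control and BPA25 also called 0 genes (limma, 0% of 16173, 615 at an unadjusted p under 0.05). All 7 genes had an adjusted p of 0.997 in that limma F test.

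Beyond group means, the levels of some of these genes varied together from array to array. After group and slide means were removed, Zbtb16 correlated with Tsc22d3 at r = 0.71, with Fkbp5 at 0.53 and with Pdk4 at 0.52 over 35 arrays. Fkbp5 and Pdk4 correlated at 0.71, and Tsc22d3 and Pdk4 at 0.60. Sgk1 correlated with Ddit4 at 0.62 and with Klf9 at 0.56, and with Zbtb16 at 0.03. Klf9 correlated with both kinds of gene, at 0.46 with Zbtb16, 0.42 with Tsc22d3 and 0.38 with Ddit4, so the genes did not split into separate sets. Outside slide 3, with group and slide means kept, Tsc22d3 correlated with Klf9 at 0.60 and with Sgk1 at 0.54. Errfi1 correlated with Klf9 at 0.39, and with Zbtb16 and Sgk1 at -0.11 and 0.03, all after group and slide means were removed. These are descriptions over arrays that share a scanner, slides and centring. Zbtb16 and Pdk4 are near background on many of them. The values also use only the brightest probe of each gene. After group and slide means were removed, that probe correlated with the other probe of its gene at 0.42 for Zbtb16, 0.19 for Tsc22d3 and 0.40 for Klf9. For Fkbp5 its correlations with the dimmer probes were 0.90 and 0.83.

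Per1, a period gene of the circadian clock that glucocorticoids also induce directly, had the pattern most like Zbtb16 of all 16172 other genes, with r = 0.82 (rho = 0.86) over the 31 arrays outside slide 3. It kept r = 0.81 after group and slide means were removed. Over the 12 arrays outside slide 3 on which Zbtb16 was well above background r was 0.62, and with the other Zbtb16 probe it was 0.56. Next came 3 transcripts that carry only array names: TC541862 (r = 0.82), BF548548 (0.81) and CB327764 (0.70). Fkbp5 ranked 5, at 0.63, and 0.55 without the 2 arrays farthest out for Zbtb16, and Tsc22d3 ranked 18 at 0.52.

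Per1 itself read -0.64, -1.55, -1.58, -1.50 and -1.63 in control and -2.84, -1.94, -3.16, -2.04 and -2.10 with BPA25. All BPA25 arrays were below all control arrays, which held in that direction for 28 of the 16173 genes (0.173%). As Per1 was picked for its likeness to Zbtb16, this too is a description. Its difference was -1.04 in BPA25, -0.40 in BPA250 and -0.79 in BPA25+I3C, each against control, and it lay at 0.20 ± 0.38 and -0.02 ± 0.38 (limma, not called) for genistein and I3C added to BPA250.

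**Figure D4:**
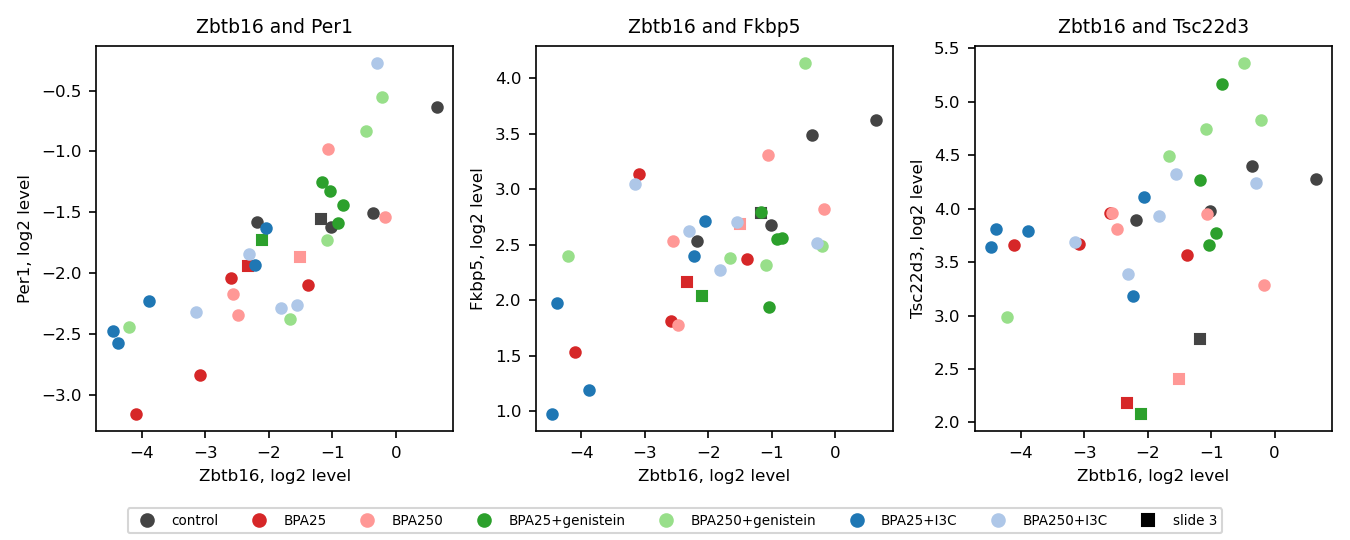
Level of Zbtb16 against Per1, Fkbp5 and Tsc22d3 on the same array (log2 relative to the 75th percentile of the array), 35 arrays coloured by group, squares for slide 3. Points rise from lower left to upper right for Per1 (r = 0.82 over the 31 arrays outside slide 3), more loosely for Fkbp5 (0.63) and Tsc22d3 (0.52). Slide 3 lies low for Tsc22d3.

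By rank over the 35 arrays, BPA250+genistein replicate 5 was among the 5 highest arrays for 5 of the 6 kept genes, with a median rank of 1. BPA250+genistein replicate 2 was among the 5 lowest for 5 of 6, with a median rank of 31. Both belong to the same group. Control replicate 1 and BPA250 replicate 5 were each among the 5 highest for 3 genes. Control replicate 2, on slide 3, also had a median rank of 31.

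Of 40 further genes that glucocorticoids are known to induce, Per1 among them, 32 were kept. With BPA25, 22 of the 32 were lower and 10 higher than in control (median -0.16, all genes 0.01). With genistein added to BPA250, 24 were higher and 8 lower (median 0.55, all genes 0.07) and limma called 0 of them. Its brightest genes were Acsl1 (fatty acid activation, -0.22 ± 0.50) and Tgm2 (transglutaminase, 0.85 ± 0.49) in that comparison. I3C added to BPA250 left 20 higher and 12 lower (median 0.20, all genes 0.24), with 0 called and Acsl1 at 1.11 ± 0.47. The direction of this last median turned to -0.01 in the authors' values. Beside the genistein values, 17 of 18 skeletal muscle markers were lower (median -1.40) and 4 of 4 T cell markers higher (by 1.41 to 1.85), none called by limma, and their part in the list's values was not tested.

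Among 17 genes of the receptor complex and hormone access, 14 were kept, and 9 were higher and 5 lower with genistein added to BPA250 (median 0.07, equal to that of all genes). With I3C added to BPA250, 13 of the 14 were higher, where 69.8% of all genes were (median 0.51, all genes 0.24). That median was 0.30 with quantile scaling (all genes 0.21) and 0.18 in the authors' values (all genes 0.12). Limma called 0 in either comparison. The brightest were the chaperones Hspa8 (0.10 ± 0.46 and 0.52 ± 0.46) and Hsp90ab1 (0.28 ± 0.46 and 0.63 ± 0.46). These values too include slide 3, on which BPA250 has an array and its diet groups have none. On that array Nr3c1 read -0.50 and Hsd11b1 0.91, against BPA250 medians of 1.85 and 2.83. The log2 of the summed linear levels of the 14 genes was 5.67 on the lowest BPA250 array and 7.70 on the lowest BPA250+I3C array.

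Cell type markers also varied between arrays. Marker sums here are the log2 of the summed linear levels, so the brightest markers weigh most. The sum of 18 muscle markers ran from 8.73 to 11.48 in control, 6.33 to 10.24 in BPA25 and 2.84 to 7.50 in BPA250+I3C. Its correlation with the list lay between -0.11 (Tsc22d3) and 0.11 (Fkbp5 and Klf9) over the 31 arrays outside slide 3. The sum of 12 luminal markers ran from 3.82 to 5.76 in control and 2.70 to 5.09 in BPA25+I3C, and its r with Zbtb16 was 0.33, or -0.10 after group and slide means were removed. The sum of 14 adipocyte markers had medians of 10.86 to 11.12 in every group and r = 0.00 with Zbtb16, or 0.30 after group and slide means were removed. Klf9 had r = 0.60 with the adipocyte and the macrophage sums, and 0.28 and 0.21 after group and slide means were removed. What part the cell mixture had in these values was not tested.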

How the data were processed

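Total RNA of each animal was hybridised to a Cy3 array. Scans were deposited as spot-level outputs of Agilent Feature Extraction 9.5.3.1 (per the submitters' processing notes). Per the file headers, the processed signal is an intensity with background subtracted, detrended, and small surrogates near background. The mean signal and local background were deposited as intensity too, with 0 or 1 flags. A further file of log2 values was deposited, normalised by a method not given in the sources used here.

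Log2 processed signal was set relative to the 75th percentile of an array's non-control spots, outlier spots were left missing, and replicate spots were averaged. Genes missing on more than 5 arrays were dropped. Group means of all 35 arrays were fitted with limma 3.58.1 in R 4.3.3, with Benjamini-Hochberg adjustment over 16173 genes and a threshold of 0.05. Figures and descriptions used Python with pandas and matplotlib. The code was tested on simulated data. There were 10 slides and 5 scan days, per the file headers.

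The members and gene lists were chosen with earlier results of these data known. Named were all 8 members, the 2 brightest kept genes of the glucocorticoid, receptor, clock and immediate early lists, and the 5 genes most correlated with Zbtb16 outside slide 3. The number of arrays limits the precision. The p-values of the main fit set group differences against the spread between arrays within groups, in which animal, slide and scan day are mixed. Alternatives were normexp (offset 50), quantile scaling, a percentile over detected probes, the authors' table, other probe filters, outlier spots kept, all probes, blocks for slide, scan day and replicate number, no slide 3, only the 5 tested groups, and leaving out each array.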

Additional observations from a re-analysis of the deposited data

Results flagged for a closer look

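In 70 groups of 5 arrays (the members, both Zbtb16 probes and Per1), 7 held an array set apart from the other 4 by more than Dixon's 95% value, where chance flags about 1 in 20 groups. Of these 7, 4 lie on slide 3: Zbtb16 in BPA25+genistein replicate 2 (-2.10, the next at -1.17), Tsc22d3 in BPA25 replicate 2 (2.18, the next at 3.57), Klf9 in BPA25 replicate 2 (0.76, the next at 2.44) and Errfi1 in control replicate 2 (0.71, the next at 2.84). Fkbp5 in BPA250+genistein replicate 5 stood high at 4.14, where the next array read 2.49. Per1 stood high in replicate 1 of control (-0.64, the next at -1.50) and of BPA250+I3C (-0.27, the next at -1.84), both on slide 1. The cause was not tested.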

How the results depend on the processing

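No member was called under any setting run, and each of the 3 counts of called genes was 0 in all 35 fits that left out 1 array. The count for genistein added to BPA250 was 76 with slide as a random block and 1 in the authors' values. For I3C added to BPA250 it was 2 with slide as a random block. For any difference among the 5 groups it was 187 with slide as a random block, 81 with slide as a fixed block, 3 with the percentile over detected probes, 1 with quantile scaling and 1 with only the 5 groups fitted. The cause was not tested. Replicate numbers recur in every group. Same-number arrays deviated together more than different-number arrays (median r = 0.21 against -0.017), though not always (lowest -0.395). Of 35 arrays, 22 correlated best with an array of their own number. Replicate number largely followed slide and scan day: replicate 1 lay on slides 1 and 2 in every group, and replicate 5 on slides 9 and 10. Likeness by number therefore cannot be told apart from that of shared slides and scan days. The main fit held no term for replicate number. The replicate block left all 3 counts at 0 and changed no call.

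Signs near 0 turned as follows. Genistein added to BPA250: Errfi1 0.10 with normexp, Fkbp5 -0.04 with quantile and with slide as a fixed block, and Zbtb16 -0.07 with the percentile over detected probes and -0.02 in the authors' values. I3C added to BPA250: Errfi1 0.16 with normexp, Tsc22d3 -0.04 and Fkbp5 -0.43 with quantile, Klf9 -0.02, Sgk1 -0.07, Fkbp5 -0.39 and Ddit4 -0.29 with the percentile over detected probes, Tsc22d3 -0.05 and Fkbp5 -0.37 in the authors' values, Fkbp5 -0.11 and -0.06 with slide as a fixed or random block and -0.02 with scan day, and Ddit4 -0.06 with scan day and -0.08 without slide 3. Leaving out 1 array at a time, genistein gave -0.30 to 0.70 for Zbtb16, -0.23 to 0.29 for Fkbp5, -0.15 to 0.89 for Ddit4 and -0.93 to 0.49 for Errfi1, and I3C gave -0.65 to 0.08 for Zbtb16, -0.20 to 0.18 for Fkbp5, -0.08 to 0.41 for Ddit4 and -0.58 to 0.07 for Errfi1. Signal over background limits Zbtb16, Ddit4, Pdk4 and Per1.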

Other observations

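Of 20 clock genes, 13 were kept, and with BPA25 10 of them were higher and 3 lower than in control (median 0.11, all genes 0.01), while Per1, a member of that list, was the lowest at -1.04. Dbp, the brightest, read 0.10 ± 0.26. Of 22 immediate early genes, which stress and handling raise, 16 were kept and 12 of them were lower with BPA25 (median -0.12), with Jund at -0.23 ± 0.39 and Klf6 at -0.04 ± 0.49. These are descriptions (log2 fold change ± SE, 5 arrays per group) with no test.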
